A study of Mus musculus with 3 samples.

Results

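Aminoacyl tRNA synthetases are the enzymes that join each amino acid to its tRNA before translation. Their genes were chosen by symbol: every gene named with 1 capital letter, "ars" and an optional 1 or 2, together with Eprs, Farsa and Farsb. The rule found 37 of the 22457 measured genes, 20 for the cytosolic enzymes and 17, with the suffix 2, for the mitochondrial enzymes. They were measured by polyA plus RNA-seq in regulatory T cells (Treg cells, the Foxp3-dependent CD4 T cells that hold back other immune cells) taken as primary cells from male adult mice of 4 months. The data form 1 group of 3 libraries, described in the labels as technical replicates of a single biological replicate, and the sources used here give no strain, genotype or number of animals. No condition can be compared, and each SD or p-value describes the spread between libraries of the same sample. In the bulk libraries, fewer cells of a type and less RNA per cell cannot be told apart.

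Each synthetase recognises its amino acid and the matching tRNAs, activates the amino acid with ATP and transfers it to the tRNA end. Nuclear genes encode the cytosolic enzymes and also the separate set that is imported into mitochondria, where it serves the few proteins made from mitochondrial DNA. Several cytosolic enzymes sit in a multisynthetase complex held by the scaffold proteins Aimp1, Aimp2 and Eef1e1. When an amino acid runs short, uncharged tRNA activates the kinase Gcn2, and the transcription factor Atf4 then raises amino acid transporters, biosynthetic enzymes and a number of cytosolic synthetases. T cells that are activated to divide are known to increase protein synthesis.

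Promoters are shown first for a short run of letters found in several of the cytosolic genes. RefSeq promoters of build GRCm38.p6, from 250 bases before to 50 after the gene start, matched 13 cytosolic and 14 mitochondrial genes. Genes with no entry included Cars, Hars, Lars, Nars, Rars, Vars, Wars, Hars2 and Pars2. On either strand, TGATGNAA, the letters of the C/EBP-ATF composite element to which Atf4 is known to bind, was present in 5 of the 13 cytosolic promoters (38.5%) and in 0 of the 14 mitochondrial ones. Over all promoters of this length it was present in 1304 of 32851 (3.97%). The 5 genes were Aars, Gars, Iars, Tars and Yars. Capitals mark the match nearest to the gene start in each 30-base window below, written 5′ to 3′ on the strand of the gene. The letters run in the gene's direction in Yars and on the opposite strand in the others.
Aars, chr8:111033840-111033869, plus strand: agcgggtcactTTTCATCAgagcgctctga
Gars, chr6:55037960-55037989, plus strand: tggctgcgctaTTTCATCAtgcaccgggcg
Iars, chr13:49682126-49682155, plus strand: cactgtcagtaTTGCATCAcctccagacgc
Tars, chr15:11399655-11399684, minus strand: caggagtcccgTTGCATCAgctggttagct
Yars, chr4:129189895-129189924, plus strand: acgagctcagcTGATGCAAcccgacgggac
A match describes the letters and is not evidence of binding. The first base of the match lay at position +10 in Aars, -30 in Gars, +8 in Iars, -15 in Tars and +4 in Yars, counted from the RefSeq start. In these windows TTGCATCA was shared by Iars and Tars and, read on the other strand, by Yars, and TTTCATCA by Aars and Gars.

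All 37 synthetase genes were detected, defined as 1 CPM (count scaled to a library total of 1e6) or more in every library, against 47.3% of all measured genes. Together the 37 genes held 0.531% of the counts, with 0.453% on the cytosolic and 0.0783% on the mitochondrial genes. The summed level of the cytosolic genes was 4678, 4397 and 4505 CPM in libraries 1, 2 and 3. The mitochondrial genes summed to 834, 714 and 803 CPM in the same order. Library 2 had the lowest sum of each set. The median of the mean levels was 190 CPM for the cytosolic genes and 33.8 CPM for the mitochondrial genes, against 45.6 CPM for all detected genes. The library totals were 3316275, 3079004 and 2782259 counts, so that 3 counts, the limit that a count of 0 allows, equal 0.905, 0.974 and 1.08 CPM.

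**Figure D1:**
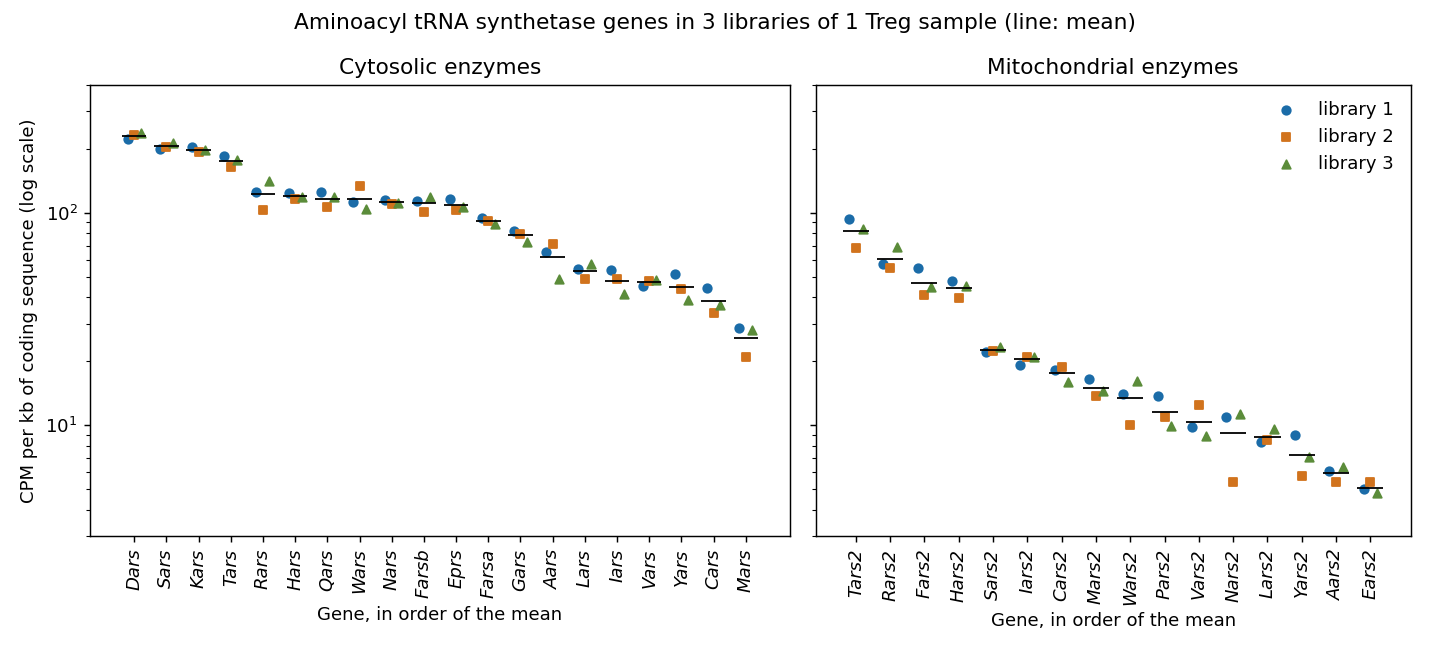
Level of the synthetase genes in CPM per kb of coding sequence (log axis), with points for the 3 libraries and a short line for their mean, cytosolic genes left of mitochondrial genes, in order of the mean. The cytosolic means run from 230.5 for Dars to 25.8 for Mars, and the mitochondrial means from 81.7 for Tars2 to 5.06 for Ears2.

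Genes were compared with each other per kb of coding sequence, since long genes collect more counts. On this scale the median was 109.7 CPM per kb for the cytosolic genes and 14.9 for the mitochondrial genes, against 30.7 for detected genes with a coding length. The log2 difference of the medians, cytosolic minus mitochondrial, was 2.78, 2.90 and 2.72 in libraries 1, 2 and 3, with a mean of 2.80 ± 0.09 (SD, n = 3 libraries). As unscaled levels on the log2(CPM + 1) scale it was 2.58, 2.37 and 2.68, with a mean of 2.54 ± 0.16. Every library gave the same direction. The sets overlapped: 5 of the 17 mitochondrial genes, among them Tars2, Rars2, Fars2 and Hars2, lay above the lowest cytosolic gene, Mars, and 0 lay above the cytosolic median. Per kb of exon length, which includes untranslated parts, 3 lay above the lowest cytosolic gene, then Yars at 13.7 CPM per kb.

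Among the cytosolic genes, Eprs had the highest unscaled level. It encodes the bifunctional enzyme for glutamate and proline, lies on chromosome 1 (185363044 to 185428360, plus strand, GRCm38) and has the longest coding sequence of the set, 4536 bases. Its counts were 1741, 1442 and 1341, or 525, 468 and 482 CPM, in libraries 1, 2 and 3. Per kb it stood at 108.4 ± 6.52 CPM (SD, n = 3), near the cytosolic median.

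Per kb of coding sequence, Dars (chromosome 1, 128363707 to 128417368, minus strand), the aspartate enzyme, was highest of all 37 genes. It had 1138, 1109 and 1019 counts, or 343, 360 and 366 CPM, and 230.5 ± 7.74 CPM per kb. Sars (chromosome 3, 108424865 to 108445209, minus strand), the serine enzyme, which also supplies the serine that is turned into selenocysteine on its tRNA, followed with 1063, 1014 and 953 counts and 205.7 ± 6.88 CPM per kb. Dars exceeded Sars in every library. Kars (chromosome 8, 111993443 to 112011323, minus strand), the lysine enzyme, whose gene yields the cytosolic and the mitochondrial form by alternative splicing, had 1304, 1149 and 1059 counts and 198 ± 5.25 CPM per kb. Sars and Kars overlapped across libraries. Tars (chromosome 15, 11382301 to 11399665, minus strand), the threonine enzyme, had 1333, 1101 and 1068 counts and 176 ± 10.3 CPM per kb, below Kars in every library. Dars was the densest of all 37 genes in counts, with 0.704 per coding base. The lead depends on the length used: per kb of exon length Kars stood at 85.6 CPM and Dars at 81.8, and unscaled Eprs, Kars and Tars were above Dars.

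From Rars at 123 to Eprs at 108.4 CPM per kb, no neighbours in the order of the cytosolic genes separated across libraries. Rars (arginine) and Hars (histidine, 119 ± 3.82) led it. Qars, the glutamine enzyme, which has no mitochondrial counterpart, had 968, 769 and 776 counts and 117 ± 9.21 CPM per kb. Wars, the tryptophan enzyme, known in human cells to be raised by interferon gamma, stood at 117 ± 14.9, and Nars (asparagine) at 112 ± 2.46. Phenylalanine is served by an enzyme of catalytic Farsa and partner Farsb subunits. Farsb (701, 580 and 616 counts) stood at 111 ± 9.08 and Farsa (479, 428 and 376 counts) at 91.6 ± 3.07 CPM per kb. Farsb exceeded Farsa in every library. Gars, the glycine enzyme, whose gene gives both forms from alternative starts, had 598, 535 and 442 counts and 78.2 ± 5.03 CPM per kb.

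The lower cytosolic genes lay between 25.8 and 61.8 CPM per kb and were Aars (alanine), Lars (leucine, also a leucine sensor for mTORC1), Iars (isoleucine), Vars (valine), Yars (tyrosine), Cars (cysteine) and Mars (methionine). Lars had 639, 531 and 564 counts and 53.4 ± 4.35 CPM per kb, and Vars had 587, 573 and 528 counts and 47.0 ± 1.68. These long genes, with coding lengths of 3542 and 3922 bases, had unscaled levels of 189 and 184 CPM, near the cytosolic median. Yars had 310, 246 and 198 counts and 44.6 ± 6.16 CPM per kb. Cars had 366, 260 and 256 counts and 38.4 ± 5.35 CPM per kb. Mars (chromosome 10, 127296221 to 127311786, minus strand), which charges the initiator as well as the elongator tRNA, had 258, 175 and 213 counts and 25.8 ± 4.31 CPM per kb. Mars was the lowest cytosolic gene unscaled and per coding kb, but Yars was lowest per kb of exon length. Of its exon bases, 1.99% overlap the stress-response gene Ddit3 on the opposite strand, and strand use in the counting is not given in the sources used here. For Iars, 20.3% of coding 31-mers are shared with other genes, so its reads may be counted elsewhere. For Aars, 14.3% of exon bases overlap Exosc6 on the same strand. Exosc6 is not among the measured genes, so reads of Exosc6 may be counted as Aars.

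Neighbours in the order were rarely separate. Over all 37 genes ordered per coding kb, 9 of 36 neighbouring pairs did not overlap across libraries and 27 did. The separate pairs included Dars above Sars, Kars above Tars, Tars above Rars, Eprs above Farsa, Gars above Aars, Sars2 above Iars2, Iars2 above Cars2, and Aars2 above Ears2.

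Within the cytosolic set, the 8 enzymes of the multisynthetase complex (Dars, Eprs, Iars, Kars, Lars, Mars, Qars and Rars) were set against the 12 free ones. Their medians were 113 CPM per kb in the complex and 101 CPM per kb among the free enzymes. The log2 difference of medians, complex minus free, was 0.22, 0.11 and 0.23 in libraries 1, 2 and 3 (mean 0.18 ± 0.07), and it turned to -0.26 ± 0.15 per kb of exon length. The members of the complex spanned 8.94-fold, from Mars to Dars, and the free enzymes 5.36-fold, from Cars to Sars. The scaffold genes were measured beside them. Aimp1 had 536, 515 and 541 counts and 182 CPM per kb, and Eef1e1, also called p18, had 159, 197 and 203 counts and 118 CPM per kb. Aimp2 had 286, 247 and 249 counts and 88.9 CPM per kb, with 37.9% of its coding 31-mers shared with other genes. All 3 scaffold genes lay within the range of the complex enzymes per kb.

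Synthetases fall into class I, with a Rossmann-type catalytic domain, and class II, with a different, antiparallel fold. Eprs, which joins one of each, was left out. The median was 32.1 CPM per kb over 18 class I genes and 79.9 CPM per kb over 18 class II genes. The log2 difference of medians, class I minus class II, was -1.31, -1.50 and -1.28 in libraries 1, 2 and 3, with a mean of -1.36 ± 0.12. Class I was lower in each compartment taken alone, by a difference of -1.22 ± 0.07 among cytosolic genes (9 class I, 10 class II) and of -0.92 ± 0.04 among mitochondrial genes (9 class I, 8 class II). Class I coding sequences were longer, with a median of 2162 bases against 1690 in class II. Without length scaling, the medians were 76.0 CPM in class I and 175 CPM in class II over both compartments. They were 181 and 203 CPM, class I first, among cytosolic genes and 26.2 and 47.8 CPM among mitochondrial genes. Per kb of exon length the difference over all 36 genes was -1.01. Per coding kb the highest class I gene was Rars and the highest class II gene Dars, while unscaled they were Qars and Kars.

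Mitochondrial genes were led by Tars2 (chromosome 3, 95739976 to 95760206, minus strand), the threonine enzyme. It had 678, 457 and 509 counts, or 204, 148 and 183 CPM, and 81.7 ± 12.9 CPM per kb. Rars2 (chromosome 4, 34614957 to 34660167, plus strand), the arginine enzyme, had 330, 294 and 332 counts and 60.4 ± 7.36 CPM per kb. The mean of Tars2 was above 8 of the 20 cytosolic genes, and that of Rars2 above 6. Fars2, the single-chain phenylalanine enzyme, had 281, 194 and 193 counts and 46.8 ± 7.23 CPM per kb. Hars2, the histidine enzyme, had 239, 186 and 190 counts and 44.2 ± 3.93 CPM per kb. Hars2 and Hars overlap on opposite strands, over 4.56% of the exon bases of Hars2 and 7.97% of those of Hars. With strand use not given, reads there may be counted for either gene.

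At the other end stood the glutamate enzyme Ears2 (chromosome 7, 122037213 to 122067263, minus strand), which in mammalian mitochondria also puts glutamate on the glutamine tRNA. Ears2 had 26, 26 and 21 counts, or 7.84, 8.44 and 7.55 CPM, and 5.06 ± 0.29 CPM per kb. Its libraries were close together, but the counts are few. The glutamate on that tRNA is then turned into glutamine by the amidotransferase, whose subunit genes Qrsl1, Gatb and Gatc averaged 57.8, 26.3 and 8.02 CPM. Yars2 (tyrosine) had 42, 25 and 28 counts, Nars2 (asparagine) 52, 24 and 45, and Wars2 (tryptophan) 53, 35 and 51. Nars2 in library 2 had less than the count of either other library, and its SD, 4.70 CPM around a mean of 13.2, was the widest of the set relative to its mean (coefficient of variation 35.6%).

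Among the remaining mitochondrial genes, Aars2, the alanine enzyme, was lowest at 5.94 ± 0.48 CPM per kb. Sars2, the serine enzyme, had 121, 114 and 107 counts and 22.6 ± 0.62 CPM per kb, a level that varied by little between libraries. Iars2, the isoleucine enzyme, had 198, 199 and 181 counts and 20.4 ± 0.96 CPM per kb. Cars2 (cysteine) stood at 17.6 ± 1.49, Mars2 (methionine) at 14.9 ± 1.43 and Pars2 (proline) at 11.5 ± 2.00 CPM per kb. Vars2 (valine) had 108, 128 and 82 counts and 10.4 ± 1.88 CPM per kb, and Lars2 (leucine) had 78, 74 and 75 counts and 8.80 ± 0.66. For Cars2 15.2% of coding 31-mers are shared with other genes, among them Naxd on the opposite strand. For Iars2 22.9% of exon bases overlap Rab3gap2 on the opposite strand.

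Pairing the enzymes by amino acid gave 17 pairs, with Farsa standing for cytosolic phenylalanine and Eprs used for both glutamate and proline. The cytosolic gene was higher per kb in all 3 libraries in 17 of the 17 pairs. The median log2 ratio, cytosolic over mitochondrial, was 2.60, a fold of 6.08, but the log2 ratios ran from 0.78 to 4.42. The direction of every pair also held per kb of exon length, but the order of the pairs depended on the length used.

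**Figure D2:**
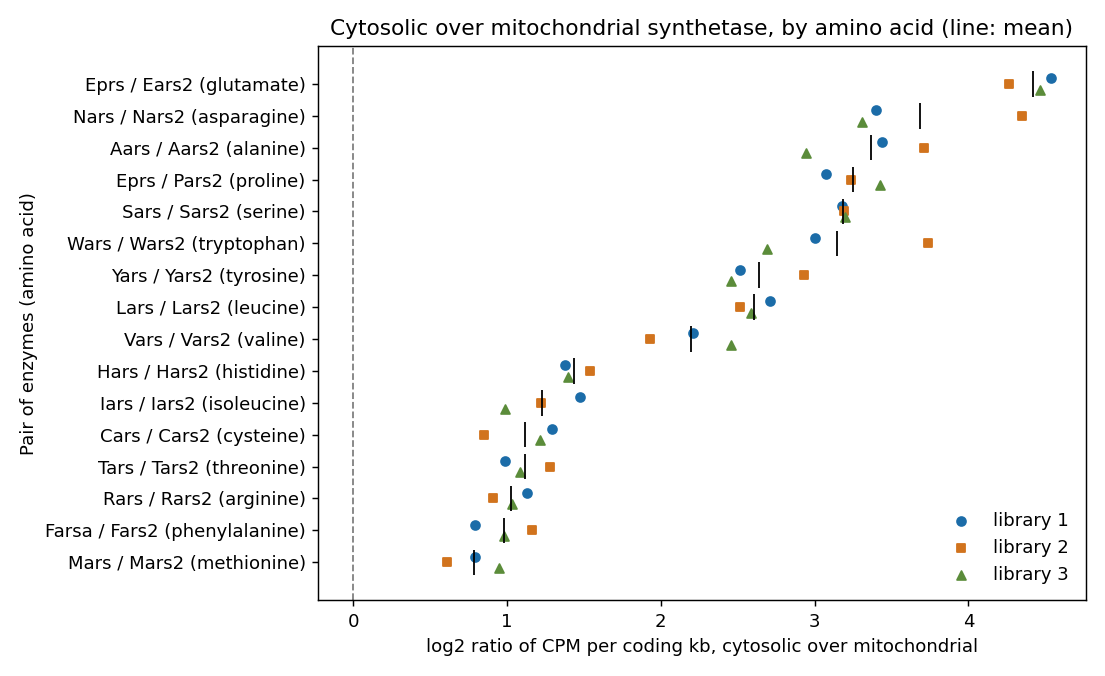
Log2 ratio of CPM per coding kb, cytosolic over mitochondrial gene, for the pairs by amino acid; points are the 3 libraries, short lines their mean and the dashed line marks 0. All points lie above 0, with glutamate highest (mean 4.42) and methionine lowest (mean 0.78).

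The glutamate pair had the widest gap per coding kb. Eprs over Ears2 was 4.53, 4.26 and 4.47 on the log2 scale in libraries 1, 2 and 3, a mean of 4.42 ± 0.14 (21.4-fold). Asparagine came next, with Nars (649, 578 and 527 counts) over Nars2 at 3.40, 4.35 and 3.31 and a mean of 3.68 ± 0.58, the high value being library 2, where Nars2 had 24 counts. Alanine followed, with Aars over Aars2 (59, 49 and 52 counts) at 3.44, 3.71 and 2.94 and a mean of 3.36 ± 0.39. The SDs of asparagine and alanine overlap each other and those of proline (3.25 ± 0.18), serine (3.19 ± 0.01) and tryptophan (3.14 ± 0.54).

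Methionine had the narrowest gap per coding kb. Mars over Mars2 (96, 74 and 71 counts) was 0.79, 0.61 and 0.95, a mean of 0.78 ± 0.17 (1.72-fold). Farsa over Fars2 was 0.79, 1.16 and 0.98, with a mean of 0.98 ± 0.19 (1.97-fold). Rars over Rars2 was 1.13, 0.91 and 1.03, with a mean of 1.02 ± 0.11 (2.03-fold). These 3 pairs overlapped across libraries. The cysteine, threonine, isoleucine and histidine pairs also had mean log2 ratios below 1.5, at 1.12, 1.12, 1.23 and 1.44. Unscaled, the narrowest log2 ratio was that of phenylalanine at 0.96, with methionine at 1.42, and the widest after glutamate (5.95) was that of proline at 4.75. Per kb of exon length, arginine was narrowest at 0.99 and asparagine widest at 4.60, with glutamate at 4.14 and methionine at 3.14. Per coding kb, methionine combined a low cytosolic gene with a mitochondrial gene at the mitochondrial median, whereas threonine and arginine combined high cytosolic genes with the highest mitochondrial ones.

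The counts of each gene were compared between the 3 libraries against Poisson noise by a chi-square test of homogeneity, adjusted by Benjamini-Hochberg over the 10043 genes whose counts summed to 30 or more. At an adjusted p under 0.05, 13 of the 37 synthetase genes differed between libraries, against 22.7% of all genes tested. The 13 were 9 cytosolic and 4 mitochondrial genes. A gene with more counts passes more easily, and no claim about the synthetases follows from the share. Over all 37 genes the median coefficient of variation was 8.48%. The test compares libraries of the same sample and not conditions.

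**Figure D3:**
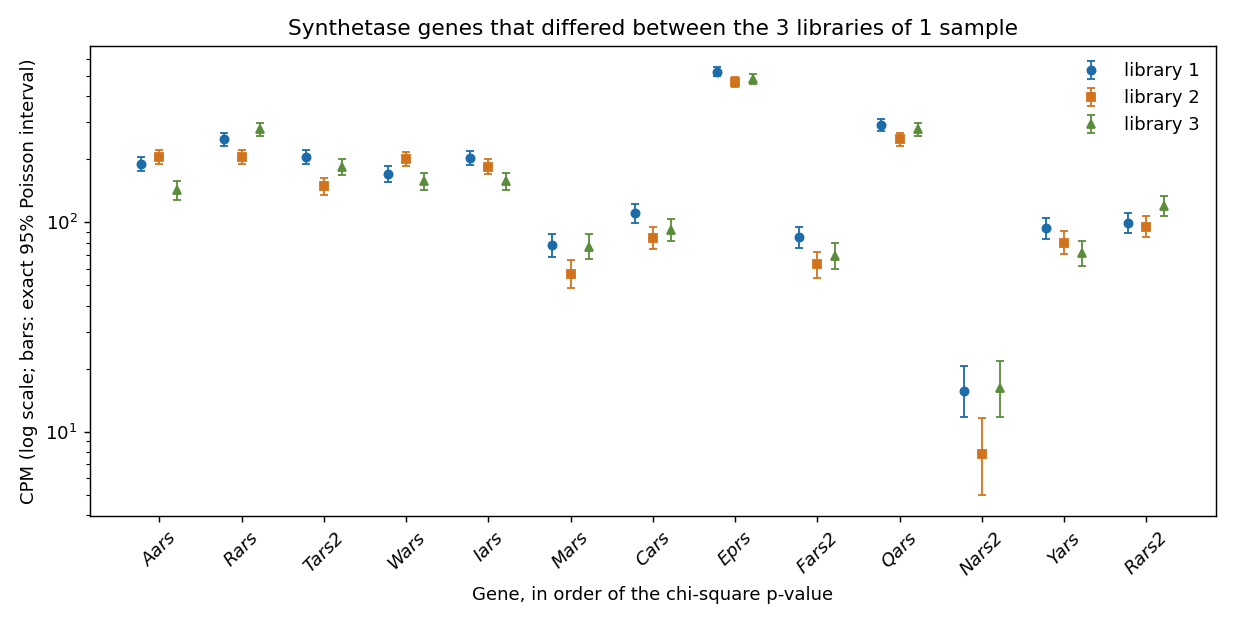
CPM (log axis) in libraries 1, 2 and 3 of the 13 synthetase genes past the chi-square test, in order of its p-value, with exact 95% Poisson intervals as bars, which cover counting error only. Aars is lowest in library 3, and Rars and Tars2 are lowest in library 2.

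Aars, the alanine enzyme (chromosome 8, 111033144 to 111057664, plus strand), differed most clearly. It had 632, 634 and 395 counts, or 191, 206 and 142 CPM, in libraries 1, 2 and 3 (chi-square adjusted p = 8.05e-07). Library 3 was the low one, and the highest library was 1.45-fold above it. Without library 3 Aars no longer differed (adjusted p = 0.444). Rars had 825, 631 and 774 counts, or 249, 205 and 278 CPM (adjusted p = 2.49e-06, 1.36-fold), with library 2 lowest. Tars2 (counts above) differed at an adjusted p of 2.03e-05, 1.38-fold, also with library 2 lowest. Wars had 565, 620 and 438 counts (adjusted p = 0.00222) and Iars 672, 567 and 438 (adjusted p = 0.00243), each lowest in library 3.

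The other 8 genes were Mars, Cars, Eprs, Fars2, Qars, Nars2, Yars and Rars2, with adjusted p from 0.0157 for Mars to 0.0484 for Rars2. Rars2 did not pass the chi-square test with the scaling factors of edgeR (adjusted p = 0.117) or DESeq2 (adjusted p = 0.104). With those of edgeR, Tars passed instead. Mars, Cars, Eprs, Fars2, Qars and Nars2 were lowest in library 2, and so was Rars2, while Yars was lowest in library 3. Over the 13 genes the highest library was 1.12-fold (Eprs) to 2.08-fold (Nars2) above the lowest, with a median of 1.31-fold. Of the 13, 9 were lowest in library 2 and 4 in library 3. Over all 37, 21 were lowest in library 2, 10 in library 3 and 6 in library 1. The share of all genes lowest in each library is not given here, so no claim about the synthetases follows from these counts. Of the 5 genes with TGATGNAA in the promoter, Aars, Gars, Iars and Yars were lowest in library 3 and Tars in library 2. By the chi-square test on library totals, Gars (adjusted p = 0.267) and Tars (adjusted p = 0.0642) did not differ between libraries. This order was noticed after the values were seen and was not tested, and no claim about the motif follows from it.

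The number depends on how spread is modelled. With edgeR's quasi-likelihood test of each library against the other 2, which estimates spread beyond Poisson noise, 1 synthetase gene passed, Aars in library 3 (log2 change -0.50, adjusted p = 0.0484), against 1.31% of the 10411 genes tested. The same test was also run with a different filter on low counts in place of the first. That filter treats the 3 libraries as 1 group and was added after the data were seen. It left 0 synthetase genes (Aars adjusted p = 0.0905), against 0.395% of the 9620 genes tested. At an unadjusted p under 0.05 there were 5 of the 37, against 14.1% of those genes. Leaving out library 2 left 3 of 37 genes by the chi-square test (Aars, Iars and Yars; 8.11%), against 15.3% of all genes tested. Without library 1 there were 8 (21.6%), against 13.1%, and without library 3 there were 10 (27.0%), against 9.43%. In the chi-square test, the members' share was thus below that of all genes without library 2 and above it without library 1 or library 3. No claim about the synthetases follows from these shares.

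Some markers of other cells also differed between these libraries by the chi-square test, 7 of 7 B cell, 3 of 3 myeloid, 2 of 2 plasma cell, 1 of 1 CD8 and 0 of 1 erythroid markers with enough counts, and so did 5 of 7 Treg markers, against 22.7% of all genes tested. The 7 B cell markers, all detected, summed to 1448, 1753 and 1846 CPM in libraries 1, 2 and 3. The 5 myeloid markers, 2 detected, summed to 42.2, 90.6 and 29.8 CPM, and the 3 plasma cell markers, 2 detected, to 5.73, 26.6 and 71.9 CPM. Most of the myeloid sum was Itgam (131, 181 and 54 counts), with 92.4% of its coding 31-mers shared with other genes. Itgam was lowest in library 3, but Lyz2 (1, 49 and 11 counts), Csf1r (5, 26 and 12) and Adgre1 (3, 18 and 6) were lowest in library 1. Cd14 had 0, 5 and 0 counts. The myeloid sum thus does not order libraries 1 and 3. The 3 erythroid markers, 2 detected, summed to 5.73, 8.77 and 16.5 CPM, and the 2 CD8 markers, 1 detected, to 21.4, 20.1 and 32.3 CPM, with Cd8a at 0, 0 and 1 counts. The 7 Treg markers were Foxp3, Il2ra, Ctla4, Ikzf2, Cd4, Cd3e and Ptprc, of which Cd4, Cd3e and Ptprc are not particular to Treg cells. They were all detected and summed to 4216, 4260 and 4491 CPM. Ptprc alone averaged 2151 CPM, so the sum does not measure Treg content. Foxp3 stood at 142 ± 6.17 CPM. By the chi-square test, Foxp3 (adjusted p = 0.59) and Ctla4 (adjusted p = 0.18) were the markers of this list that did not differ. The part of other cells in the library differences of the synthetases was not tested.

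Genes that act beside the synthetases were taken from lists. The amino acid response list, which holds Atf4, the Gcn2 gene Eif2ak4 and genes that Atf4 is known to raise, had 11 of 14 genes detected and a median of 42.1 CPM per coding kb, against 109.7 for the cytosolic synthetases. Atf4 itself had 657, 625 and 646 counts, or 211 ± 18.4 CPM. Asns, which makes asparagine, had 224, 154 and 173 counts, or 59.9 ± 8.98 CPM. Mthfd2, a mitochondrial folate enzyme, had 668, 570 and 579 counts, or 198 ± 11.8 CPM. Atf4 and Mthfd2 were the highest of the list as unscaled levels. Per coding kb Atf4 (202 CPM) was followed by Psph (172) and Mthfd2 (168). Ddit3, a stress transcription factor that Atf4 raises, had 92, 80 and 98 counts (29.7 ± 4.91 CPM), and Trib3, a pseudokinase, had 9, 10 and 9 (3.07 ± 0.30 CPM). Per coding kb Ddit3 stood at 58.8 CPM, above the list median and above Asns at 35.6, and Trib3 stood at 2.89. Chac1, which breaks down glutathione, had 1, 0 and 0 counts, and Cth, the transsulfuration enzyme, had 1 in each library, at or under the 3-count limit. Of the 10 genes of the list with 30 or more counts, 2 differed between libraries by the chi-square test, Atf4 (adjusted p = 0.0415) and Sesn2 (57, 66 and 30 counts, adjusted p = 0.0336), against the same 22.7%.

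The 8 amino acid transporter genes were all detected and had a median of 83.7 CPM. Slc1a5, the glutamine carrier, was highest with 1240, 1317 and 1140 counts (404 ± 27.4 CPM). Slc3a2, the heavy chain that the large neutral carriers share, stood at 195 ± 6.22 CPM. Its light chain Slc7a5, the leucine carrier, was lowest with 27, 5 and 15 counts (5.05 ± 3.27 CPM, adjusted p = 0.0101), library 2 being low. Of the 8 transporters, 3 differed between libraries by the same test, against 22.7% of all genes tested.

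Cytosolic elongation factors, which carry the charged tRNA to the ribosome and move it along, had a median of 170 CPM per kb over 5 genes, against 50.2 CPM per kb over 4 mitochondrial ones. Eef2 was highest with 1427 ± 93.8 CPM. Values of Eef1a1 and Tufm are uncertain, since 88.0% and 85.9% of their coding 31-mers are shared with other genes, and Eef1g shares more than either. The mitochondrial factors Gfm1 and Gfm2 averaged 139 and 93.9 CPM, above the median of the mitochondrial synthetases as levels. The cytosolic list was higher per kb than the mitochondrial one, as in the synthetases, but shared sequence touches it more.

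**Figure D4:**
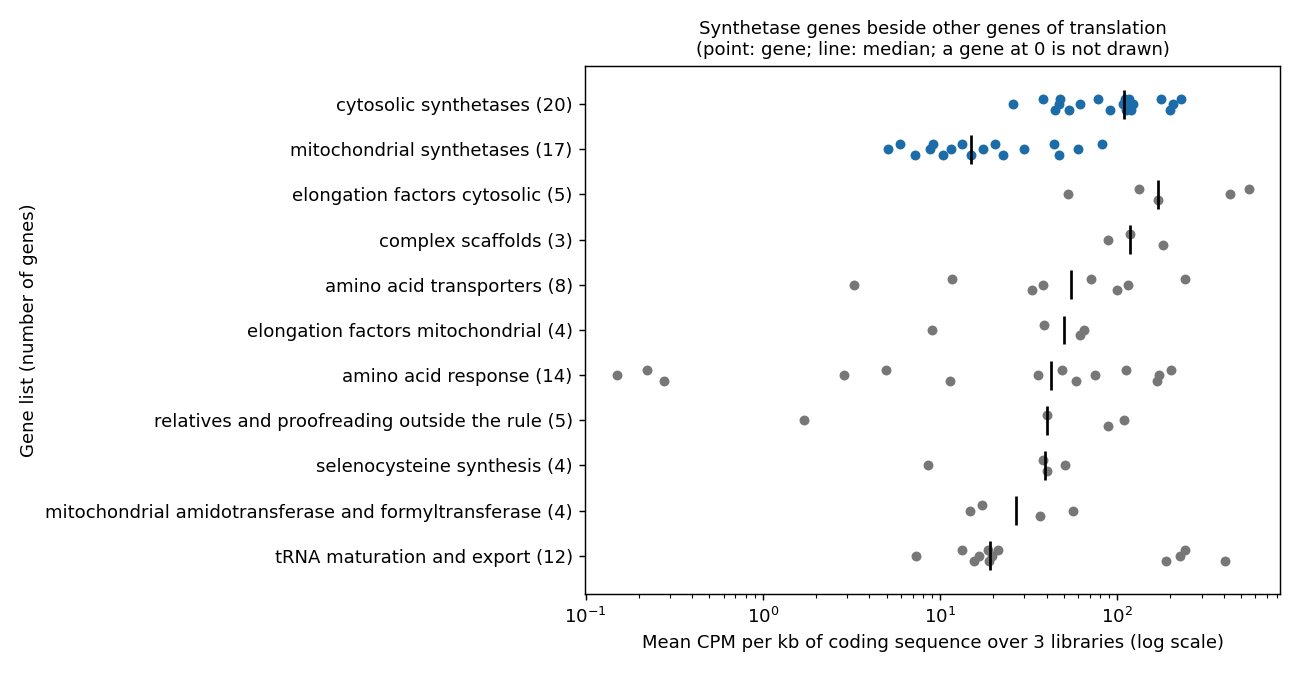
Mean CPM per kb of coding sequence (log axis) of each gene in the synthetase sets and in lists of related genes, with a line at the median. The cytosolic synthetases (median 109.7) lie above the mitochondrial ones (median 14.9), and the cytosolic elongation factors (median 170) above the mitochondrial factors (median 50.2).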

How the data were processed

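The authors deposited 1 table of whole-number counts per gene for each of 3 libraries, without scaling. Per the notes deposited with the tables, reads were aligned to mm10 with the GENCODE M4 annotation; aligner, counting program, strand use and handling of duplicate reads were not given in the sources used here. Symbols, coordinates and lengths came from GENCODE M21 on GRCm38; 262 of 22457 identifiers, with 0.136% of the counts, matched no symbol. CPM is a count scaled to a library total of 1e6. Coding length is the union of coding bases over isoforms. Shared sequence was measured with 31-mers of the coding sequence. Libraries were compared by a chi-square test with 2 degrees of freedom, over genes with 30 or more summed counts. The alternative test was the quasi-likelihood test of edgeR 4.0.16. Scaling factors of edgeR and of DESeq2 1.42.0 gave alternative library sizes for the chi-square test, and no DESeq2 test was run. The software was R 4.3.3, Python 3.11.15 and SciPy 1.17.1. On simulated data, the quasi-likelihood step was tested with spread beyond Poisson noise and the chi-square step with Poisson counts only. The chi-square step was thus not tested under wider spread. Library totals were 2782259 to 3316275 counts; limits from a count of 0 cover counting error only. The unscaled log2 difference of medians uses CPM + 1, and nothing was added to CPM in the per-kb log2 values or the pair ratios. Members and lists were chosen with earlier results of these data known. Counts per library are given for the highest and lowest members of each compartment, the widest and narrowest pairs and members past the library test. 1 mitochondrial gene and 1 promoter window are not reported here; the gene is included in totals, counts and medians but is not drawn in the plots that name genes.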

Additional observations from a re-analysis of the deposited data

How the results depend on the processing

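Leaving out each library in turn, the cytosolic minus mitochondrial difference ranged from 2.48 to 2.63 (log2(CPM + 1)) and from 2.75 to 2.84 per coding kb, the complex minus free difference from 0.16 to 0.22, the class I minus class II difference from -1.40 to -1.29 and the number of members differing between libraries from 3 (against 15.3% of all genes) to 10 (against 9.43%); the 37 detected members and the 17 pairs with a higher cytosolic gene did not change. Per kb of exon length, cytosolic minus mitochondrial was 2.94, complex minus free turned to -0.26 and class I minus class II was -1.01. Without members that share over 10% of coding 31-mers, cytosolic minus mitochondrial was 2.89 per kb. Over all cytosolic members alone, class I minus class II was -1.22. The causes were not tested. Members differing between libraries numbered 12 or 13 under the other scalings and filters of the chi-square test, against 20.5% to 24.3% of all genes, but 1 with edgeR's quasi-likelihood test (1.31% of all genes) and 0 with its filter for 1 group (0.395%), an alternative chosen after seeing the data. The low counts of Ears2, Yars2, Nars2 and Wars2 limit their ratios. No paired analysis was possible because the 3 libraries form 1 group.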

Other observations

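Genes that finish, check or extend the work of the synthetases were measured beside them. The tRNA maturation and export list had 12 of 12 genes detected and a median of 19.2 CPM per kb, with Ssb, the La protein that binds new tRNA ends, at 503 ± 19.5 CPM and the tRNA ligase Rtcb at 344 CPM. Its lowest members were Elac1, a tRNA end-processing nuclease, at 20.3 CPM, and Tsen34, a splicing endonuclease subunit, at 8.71 CPM, with 48.3% of its coding 31-mers shared with other genes. Of the 12, 2 differed between libraries by the chi-square test, against 22.7% of all genes tested: Polr3a, the large subunit of RNA polymerase III, with 341, 205 and 186 counts (adjusted p = 1.21e-06), and Maf1, its repressor (adjusted p = 0.00539). The 4 genes of selenocysteine synthesis and insertion were detected at 104 (Secisbp2), 71.5 (Eefsec), 56.9 (Pstk) and 13.0 (Sepsecs) CPM. Mtfmt, which formylates the mitochondrial initiator tRNA, stood at 65.2 ± 1.30 CPM. Among relatives outside the symbol rule, the proofreading deacylases Dtd1 and Dtd2 stood at 68.4 and 22.2 CPM, Prorsd1 at 53.2 CPM and the second threonine enzyme Tarsl2 at 4.03 ± 2.14 CPM. Aarsd1 was listed at 0 in every library, and 96.8% of its coding 31-mers are shared with other genes.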
